A study of Mus musculus with 6 samples.

Results

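The genes described here encode 9 proteins of synaptic vesicles and their release machinery: Syp, Syn1, Syn2, Syt1, Snap25, Vamp2, Stx1a, Rab3a and Sv2a. They were taken by the symbols SYP, SYN1, SYN2, SYT1, SNAP25, VAMP2, STX1A, RAB3A and SV2A, with case ignored, from tables of histone mark signal in 6 mouse tissue sections that list 19378 genes in all. All 9 had a row for the embryo sections and the control paw. The adult brain table (11345 genes) held 6 of them and lacked Syn1, Syn2 and Stx1a, and the arthritis paw table (11130 genes) held 6 and lacked Syp, Syn1 and Stx1a. Syt1, Snap25, Vamp2, Rab3a and Sv2a were among the 9471 genes held by all sections.

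Each group was 1 section on a barcoded DNA array, so nothing measures the spread between animals and every difference below describes these sections. H3K4me3, a mark of active promoters, was profiled in an adult wild-type brain (20 µm) and in a wild-type embryo at E11.5 (16 µm). H3K27ac, a mark of active promoters and enhancers, and H3K27me3, the mark left by Polycomb repression, were profiled in further E11.5 sections. H3K27ac was also profiled in fixed, decalcified and paraffin-embedded adult paws (4 µm), 1 with collagen-induced arthritis at 42 days and 1 labelled as its control at the same time. Recovered reads per section ran from 403483 in embryo H3K4me3 to 5981684 in the control paw, and the median gene held from 7 to 274 reads. The brain and embryo are mixtures of cell types, and more cells carrying a mark cannot be told apart from more of the mark per cell.

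A presynaptic terminal stores transmitter in small vesicles and releases it when calcium enters. Vamp2 on the vesicle pairs with Stx1a and Snap25 on the plasma membrane to form the SNARE bundle that pulls both membranes together, and Syt1 is the calcium sensor that triggers fusion. Syn1 and Syn2 tether vesicles in reserve, Rab3a is the small GTPase that guides docking, and Syp and Sv2a are abundant membrane proteins of the vesicle. Sv2a is also the binding site of the antiseizure drug levetiracetam. Mature neurons use all of these proteins, and some of them also serve neuroendocrine cells.

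The promoters of Syp, Sv2a, Syt1 and Syn1 are shown because these genes carry the differences and the steady level by reads described below. Each run is the 250 bases before the RefSeq transcription start (GRCm38.p6), read 5′ to 3′ along the gene's own strand. Capitals mark matches, on either strand, to the GC box (GGGCGG), the CCAAT box, the cyclic AMP response element (TGACGTCA) and TTCAGCACC, the left portion of the element bound by REST, a repressor of neuronal genes outside neurons.
Syp (chrX:7638330-7638579, + strand): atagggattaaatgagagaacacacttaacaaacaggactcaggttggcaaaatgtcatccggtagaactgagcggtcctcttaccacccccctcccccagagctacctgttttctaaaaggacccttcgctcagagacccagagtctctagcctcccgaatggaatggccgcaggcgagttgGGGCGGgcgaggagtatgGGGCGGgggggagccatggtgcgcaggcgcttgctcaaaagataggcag
Sv2a (chr3:96180977-96181226, + strand): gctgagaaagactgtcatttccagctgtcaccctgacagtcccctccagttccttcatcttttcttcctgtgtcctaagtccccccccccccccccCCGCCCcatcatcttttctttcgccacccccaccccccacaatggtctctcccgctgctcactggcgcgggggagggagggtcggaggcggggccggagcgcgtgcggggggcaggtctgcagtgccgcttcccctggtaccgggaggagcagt
Syt1 (chr10:109010976-109011225, - strand): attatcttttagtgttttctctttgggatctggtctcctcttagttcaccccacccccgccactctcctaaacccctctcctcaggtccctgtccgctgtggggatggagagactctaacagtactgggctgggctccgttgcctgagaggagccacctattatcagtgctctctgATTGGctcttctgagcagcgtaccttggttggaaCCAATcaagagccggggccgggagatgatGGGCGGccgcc
Syn1 (chrX:20920919-20921168, - strand): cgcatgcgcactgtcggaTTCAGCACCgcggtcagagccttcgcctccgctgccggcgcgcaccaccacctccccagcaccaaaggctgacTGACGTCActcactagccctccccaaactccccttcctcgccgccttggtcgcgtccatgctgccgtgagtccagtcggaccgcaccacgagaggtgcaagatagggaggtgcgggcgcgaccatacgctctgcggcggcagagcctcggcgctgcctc
The table held 10 promoters for 7 members and none for Snap25 and Vamp2. The GC box lay in 6 of these 10 promoters, 1 in each of 6 members, and it occurs in 32.7% of the 32851 promoters of the same length. The CCAAT box, found in 3 of the 10 (Syt1, Syn2 and Rab3a), occurs in 33.8%. In the Syn1 promoter the cyclic AMP response element (1.55% of all promoters) and TTCAGCACC (0.301%) both matched. The NRF1 motif (0.782%) and the whole REST element, searched as an exact form, had no match in these windows. That exact whole element occurs in only 0.00913% of all promoters, so its absence cannot decide whether a member carries a REST element. In the Syn1 run, the stretch that starts with the left portion differs from the whole element by 1 base. An exact search does not count such a stretch. Syn1 had 27 CpG dinucleotides, against 13 for Sv2a, 11 for Syp, 8 for the first Syt1 promoter and a median of 6 over all promoters. Whether reads were counted at promoters or over whole genes is not given in the sources used here.

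By recovered reads, Syt1 and Sv2a lay above the mean gene in every section, while Syn1, Syn2 and Stx1a lay below it wherever they had a row, as did Syp outside the brain. A level is given as reads divided by the mean reads per gene of the section, with an exact 95% Poisson interval that covers counting error only. The percentile is the rank by reads among all genes of the section, so that the median gene lies at 50. The members' median percentile was 76.5 in the brain (6 members), 65.6, 69.8 and 62.0 in embryo H3K4me3, H3K27ac and H3K27me3 (9 members each), 63.1 in the control paw (9) and 59.0 in the arthritis paw (6). The tables of the brain and the arthritis paw held fewer genes of low signal. Of the 4847 genes with the fewest reads in the control paw, 21.2% had a brain row, against 83.6% of the 4841 with the most. Ranked against the 9471 shared genes alone, the median was 73.3 in the brain, 49.8, 53.2 and 40.6 for H3K4me3, H3K27ac and H3K27me3 of the embryo, 41.3 in the control paw and 55.8 in the arthritis paw. These medians still took every member with a row, so the sets of members differed between sections. Over the 5 members held by all sections, the median was lowest in the brain, at 54.9. It was 66.0, 67.6 and 63.8 for the embryo marks in the same order, 57.1 in the control paw and 70.9 in the arthritis paw.

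**Figure D1:**
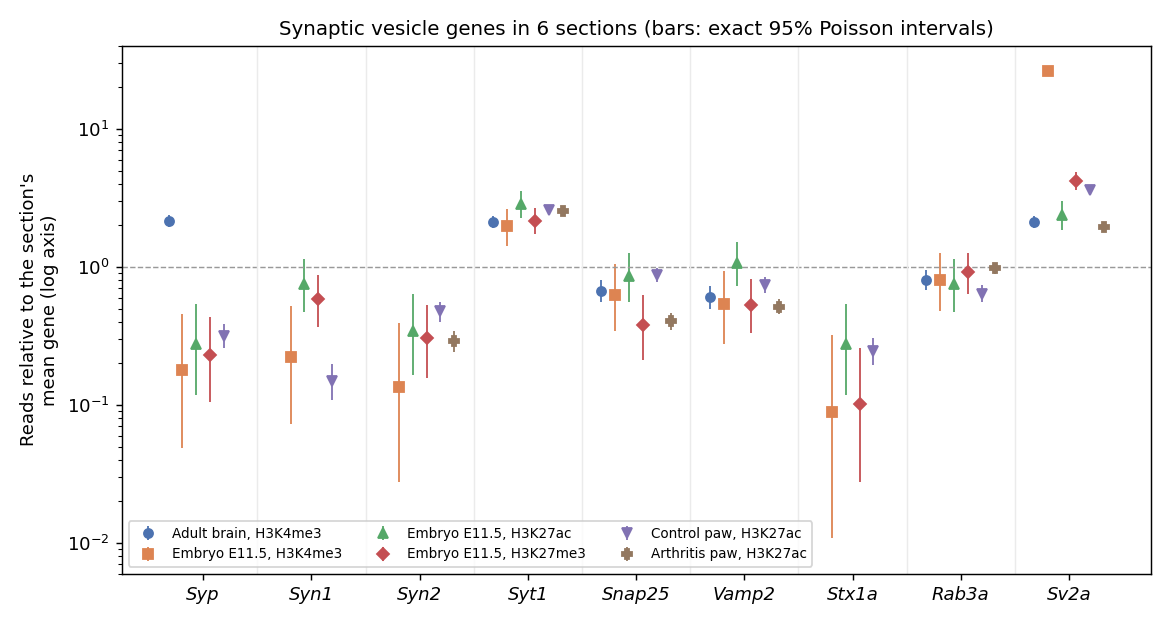
Reads of each member relative to the mean gene of its section (log axis), with exact 95% Poisson intervals; the dashed line marks the mean gene, and a missing point means that the table has no row for the gene. Sv2a in embryo H3K4me3 stands at 26.2 times the mean gene, and Syt1 lies between 1.97 and 2.86 in all 6 sections.

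The signal at Syp and Sv2a, both genes of vesicle membrane proteins, differed most between sections. Syp held 387 reads in the brain, 4 in embryo H3K4me3, 8 in embryo H3K27ac, 9 in embryo H3K27me3 and 98 in the control paw. Relative to the mean gene, these were 2.16 (1.95 to 2.38), 0.18 (0.05 to 0.46), 0.28 (0.12 to 0.54), 0.23 (0.10 to 0.43) and 0.32 (0.26 to 0.39). The brain stood above the other 4 sections without overlap of intervals, and those 4 overlapped each other.

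Sv2a held 381 reads in the brain, 586 in embryo H3K4me3, 69 in embryo H3K27ac, 166 in embryo H3K27me3, 1110 in the control paw and 933 in the arthritis paw. Relative levels were 26.2 (24.2 to 28.5) in embryo H3K4me3, then 4.22 (3.60 to 4.91) in embryo H3K27me3, 3.60 (3.39 to 3.81) in the control paw, 2.38 (1.85 to 3.01) in embryo H3K27ac, 2.12 (1.91 to 2.35) in the brain and 1.94 (1.82 to 2.07) in the arthritis paw. Embryo H3K4me3 stood apart, at percentile 99.7. Neighbours in this order overlapped except embryo H3K4me3 with embryo H3K27me3 and the control paw with embryo H3K27ac. Of the Sv2a reads in embryo H3K4me3, 5.46% lay beyond the zone in which recovered numbers are exact. The genes within 5 kb, Sf3b4 and Bola1, held 10 and 8 reads there, so the high signal was not shared by the adjoining genes.

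Syt1, the calcium sensor, held 383 reads in the brain, 44 in embryo H3K4me3, 83 in embryo H3K27ac, 85 in embryo H3K27me3, 797 in the control paw and 1215 in the arthritis paw. Its relative level was 2.86 (2.28 to 3.55) in embryo H3K27ac, 2.58 (2.41 to 2.77) in the control paw, 2.53 (2.39 to 2.68) in the arthritis paw, 2.16 (1.72 to 2.67) in embryo H3K27me3, 2.13 (1.93 to 2.36) in the brain and 1.97 (1.43 to 2.64) in embryo H3K4me3. No neighbours in this order were separate, while the brain, which is not next to either paw in it, lay below both without overlap. The percentile was 92.0 to 94.3 in all sections. With the deposited values Syt1 was less steady. It lay below the mean gene in the brain (0.87, percentile 68.3) and in embryo H3K4me3 (0.57, percentile 72.6), and at 1.17 to 1.80 in the other sections. By reads, its levels compared as follows. The difference between its highest and lowest log2 level (with the pseudocount of 0.1) was 0.52, and 3.27% of the 9471 shared genes had a smaller one. Scaled to the mean of those shared genes, its level ran from 1.43 to 2.38, a log2 range of 0.70, and 6.81% had a smaller range. On that scale the brain (1.93) lay above the control paw (1.80) and below the arthritis paw (2.38).

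Vamp2, the vesicle SNARE, lay below the mean gene in 5 of 6 sections. It held 109 reads in the brain, 12, 31 and 21 in embryo H3K4me3, H3K27ac and H3K27me3, 228 in the control paw and 248 in the arthritis paw. Relative levels were 1.07 (0.73 to 1.52) in embryo H3K27ac, 0.74 (0.65 to 0.84) in the control paw and 0.52 to 0.61 in the other 4 sections. Neighbours in the order of levels overlapped, while the control paw and the arthritis paw (0.52, 0.45 to 0.58), which are not neighbours in it, did not. The means behind these 2 levels cover unlike lists of genes. Over the genes that both paws list, the log2 ratio of arthritis to control without pseudocount was -0.13. Its interval, -0.39 to 0.14, contained 0. Per1, within 5 kb of Vamp2, held 656 reads in embryo H3K4me3, where Vamp2 held 12.

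Of the plasma membrane SNAREs, Snap25 held 121 reads in the brain, 14, 25 and 15 in the embryo sections in the same order of marks, 270 in the control paw and 194 in the arthritis paw. Its relative level ran from 0.87 (0.77 to 0.99) in the control paw and 0.86 (0.56 to 1.27) in embryo H3K27ac through 0.67 (0.56 to 0.81) in the brain and 0.63 (0.34 to 1.05) in embryo H3K4me3 to 0.40 (0.35 to 0.47) in the arthritis paw and 0.38 (0.21 to 0.63) in embryo H3K27me3. Neighbours in this order overlapped, while the control paw and the brain both stood above the arthritis paw. Stx1a held 2, 8 and 4 reads in the embryo sections and 76 in the control paw, at 0.09 (0.01 to 0.32), 0.28 (0.12 to 0.54), 0.10 (0.03 to 0.26) and 0.25 (0.19 to 0.31) of the mean gene. Stx1a was the lowest member in embryo H3K4me3 and H3K27me3, and its 4 intervals overlapped each other in the order of the levels.

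The synapsins, which tether vesicles in reserve, came closest to the mean gene with Syn1 in embryo H3K27ac. Syn1 held 5, 22 and 23 reads in embryo H3K4me3, H3K27ac and H3K27me3 and 46 in the control paw, which is 0.22 (0.07 to 0.52), 0.76 (0.48 to 1.15), 0.58 (0.37 to 0.88) and 0.15 (0.11 to 0.20) of the mean gene. The control paw value lay at percentile 10.7, below the intervals of embryo H3K27ac and H3K27me3. Syn2 held 3, 10 and 12 reads in the embryo sections, 147 in the control paw and 139 in the arthritis paw, at 0.13, 0.35, 0.30, 0.48 (0.40 to 0.56) and 0.29 (0.24 to 0.34) of the mean gene. Syn1 overlaps Timp1 and Araf in the annotation and Syn2 overlaps Timp4, and reads in shared stretches could belong to either gene. Timp1 held 142 reads in embryo H3K27ac, where Syn1 held 22.

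Rab3a, which guides docking, stayed within a narrow range on the main scale. It held 145 reads in the brain, 18, 22 and 36 in embryo H3K4me3, H3K27ac and H3K27me3, 198 in the control paw and 472 in the arthritis paw. Its relative level was 0.98 (0.90 to 1.08) in the arthritis paw, 0.91 (0.64 to 1.27) in embryo H3K27me3, 0.81 in the brain and in embryo H3K4me3, 0.76 in embryo H3K27ac and 0.64 (0.56 to 0.74) in the control paw. Neighbours overlapped, and the paws at the ends of the order did not. Its log2 range (with the pseudocount) was 0.55, and 4.01% of the shared genes had a smaller one. Scaled to the mean of the shared genes, its level ran from 0.45 in the control paw to 0.92 in the arthritis paw, a log2 range of 0.90, and 16.8% had a smaller range. Mpv17l2, within 5 kb of Rab3a, held 140 reads in the brain against 145 for Rab3a, and 67 spots held both.

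**Figure D2:**
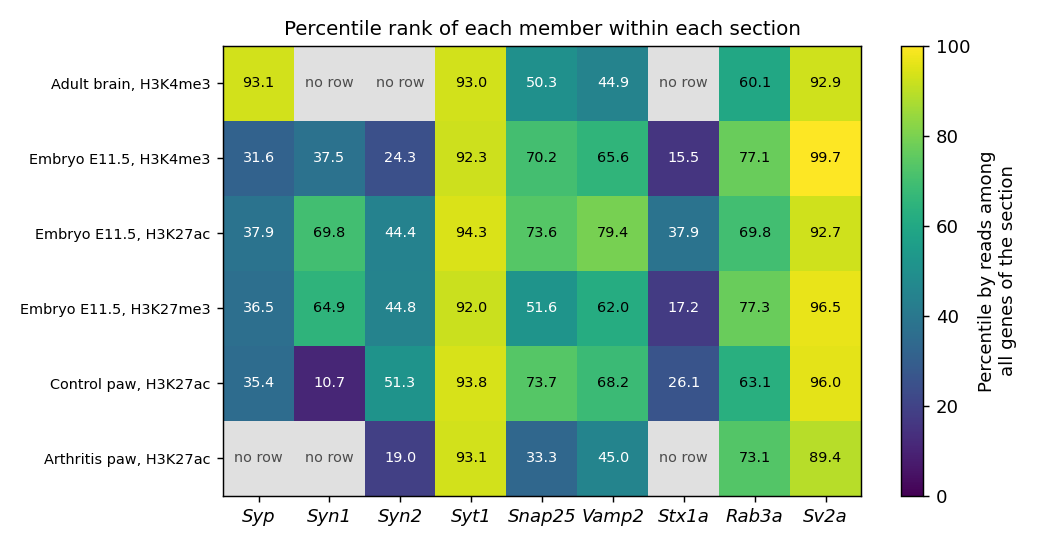
Percentile of each member by reads among all genes of its section, with sections as rows and genes as columns; grey cells have no row in that table. Syt1 and Sv2a lie at 89.4 or above everywhere, while Syp is at 93.1 in the brain and at 31.6 to 37.9 in the 4 other sections that list it.

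The order of the genes depends on how length is treated. Per kb of the RefSeq gene span, the brain held 37.1 reads for Rab3a, 28.3 for Vamp2, 27.3 for Sv2a, 26.4 for Syp, 1.75 for Snap25 and 0.75 for Syt1, which spans 513.3 kb. On this scale Rab3a ranked at percentile 89.9 of the brain's genes and Syt1 at 8.36. Reads followed span weakly across genes (Spearman's rho 0.167 over 11288 genes of the brain, as a description across genes, which are not independent). In embryo H3K4me3 Sv2a also led per kb, with 42.0 reads per kb at percentile 99.5, ahead of Rab3a with 4.61.

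The comparison of adult brain with embryo H3K4me3 asks whether genes of mature synapses carried more of this promoter mark in the adult tissue. One member stood far higher in the brain, 1 far lower, and the other 4 lay in between. Syp had a log2 ratio of 3.19 (387 reads against 4), higher than 99.9% of the 11127 genes compared. The ratio of relative levels as such was 3.88 on the log2 scale (interval 2.51 to 5.76). Sv2a had a log2 ratio of -3.28 (381 reads against 586), or -3.34 (-3.53 to -3.15) with no pseudocount added. Only 0.95% of the genes compared were as low or lower.

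Vamp2, Syt1, Snap25 and Rab3a had log2 ratios of 0.39, 0.38, 0.34 and 0.26. These lay below the median of all genes, 0.66, and with the median gene as scale they were -0.26, -0.34, -0.33 and -0.43, so their direction follows the scale. From the deposited values Vamp2 was at -0.92, Snap25 at -0.02, and Syt1 and Rab3a at 0.70 and 0.73. With no pseudocount, all 4 intervals contained 0. The 6 members had a median of 0.36 and 1 of them, Syp, lay above the median of all genes. Past 2-fold, 1 of 6 members was higher in the brain, against 31.4% of all genes compared, and 1 of 6 was lower, against 5.72%. With the median gene as scale those shares were 12.7% and 12.5%, and the members past 2-fold were again 1 higher and 1 lower. Syn1, Syn2 and Stx1a could not enter, since they had no brain row.

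**Figure D3:**
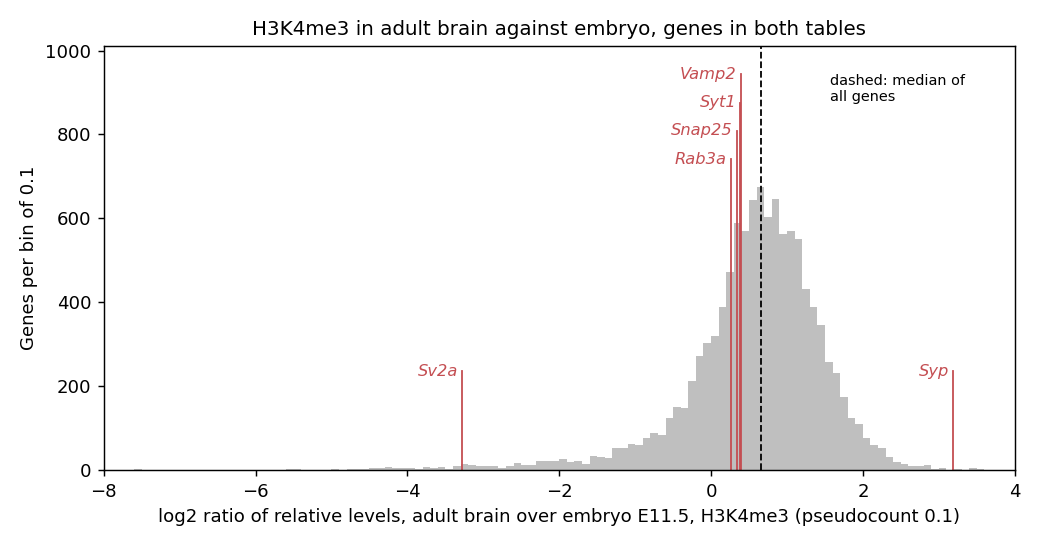
Number of genes by log2 ratio of H3K4me3 level, adult brain over embryo, in bins of 0.1 over 11127 genes; red lines mark the 6 members and the dashed line the median of all genes, 0.66. Sv2a lies in the left tail at -3.28, Syp in the right tail at 3.19, and the other 4 just below the median.

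The levels of neuron markers in the brain section were close to those of paw tissue markers. In the brain, 7 of 12 neuron markers lay above the median gene, with a median percentile of 52.2 and Rbfox3 highest at 4.17 times the mean gene. Of the paw tissue markers 5 of 9 lay above it, with a median percentile of 53.2. In the ratio of brain to embryo, neuron markers had a median of 0.73, with 3 of 12 past 2-fold higher and 0 lower, and paw tissue markers one of 0.75, with 3 of 9 higher and 0 lower. The shares over all genes were 31.4% higher and 5.72% lower, with a median of 0.66. Oligodendrocyte markers had a median of 1.32, with 4 of 7 higher and 0 lower, and astrocyte markers one of 1.19, with 4 of 6 higher and 1 lower. No marker with a row in any section was at 0 reads. The part of cell composition in the members' values was not tested.

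The other genes of the release pathway were also compared, beside the same shares over all genes (31.4% higher and 5.72% lower, with a median of 0.66). Of 60 other genes of the exocytosis machinery, 37 could be compared between brain and embryo; 10 were past 2-fold higher and 3 lower, with a median of 0.52. Highest were Syt6, a synaptotagmin, at 2.44 (259 reads against 5) and Slc18a3, the vesicular acetylcholine transporter, at 2.05 (465 against 15). Lowest were the synaptotagmins Syt5 at -2.96 (79 against 112) and Syt2, the sensor of fast synapses, at -1.92 (272 against 164). Of 17 genes of vesicle endocytosis compared, 4 were higher and 1 lower (median 0.64), with the clathrin light chain gene Cltb at 1.28 and the adaptor subunit gene Ap2a2 at 1.13, against Clta at -0.24 and the adaptor gene Ap2m1 at -1.37. Of 11 broadly used fusion genes compared, 2 were higher and 0 lower (median 0.52), namely Vamp4 at 1.99 and Stxbp2 at 1.71, each with 1 embryo read, while Rab27a was at 0.23 and Stx16 at -0.36.

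Within the embryo, the question was how the repressive and the active marks divide over genes that most cells at this stage do not yet use. The 3 comparisons share sections, so their values are not independent. Between H3K27me3 and H3K4me3, Syn1 had a log2 ratio of 1.02 (23 reads against 5) and Sv2a of -2.67 (166 against 586; -2.70, interval -2.96 to -2.45, with no pseudocount). The other 7 ran from -0.64 (Snap25) to 0.74 (Syn2). Syn1 passed 2-fold under 6 of 8 alternatives, and with the deposited values Rab3a was at 1.03 and Vamp2 at -1.03. The interval of Syn1, -0.10 to 3.07, contained 0. Past 2-fold, 1 of 9 members was higher in H3K27me3, against 15.1% of 17837 genes, and 1 of 9 lower, against 10.4%. The members' median of 0.07 was close to the 0.08 of all genes. Of the other exocytosis genes 8 of 55 were higher and 10 lower, among them Erc1, an active zone scaffold, at 5.95 or more (its 1959 H3K27me3 reads are a lower bound, against 15), and the synaptogyrin gene Syngr3 at -3.66 (3 against 47).

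Between H3K27me3 and H3K27ac, Snap25 was at -1.01 (15 reads against 25), Stx1a at -0.90 (4 against 8), Vamp2 at -0.89 (21 against 31) and Syt1 at -0.40. Sv2a was at 0.79 (166 against 69; 0.82, interval 0.40 to 1.24, with no pseudocount) and Rab3a at 0.23. The intervals of Snap25 (-2.22 to -0.21) and Vamp2 (-1.88 to -0.17) also left out 0. Past 2-fold, 0 of 9 members were higher in H3K27me3, against 10.4% of 18653 genes, and 1 of 9 was lower, against 14.1%. The members' median was -0.34, against -0.12 over all genes. Snap25 passed 2-fold under 3 of 9 alternatives, Stx1a under 3 of 8, Vamp2 under 1 of 9 and Sv2a under 1 of 9 (1.04 with the deposited values). Among the other exocytosis genes, 4 of 59 were higher and 8 lower, with a median of -0.09.

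Between H3K27ac and H3K4me3, Syn1 was at 1.36 (22 reads against 5; 1.71, interval 0.27 to 3.47, with no pseudocount), Stx1a at 0.94 (8 against 2), Syn2 at 0.88 (10 against 3) and Vamp2 at 0.83 (31 against 12). Sv2a was at -3.46 (69 against 586; -3.52, interval -3.90 to -3.15), and Rab3a at -0.12. Syn1 passed 2-fold under 7 of 9 alternatives and Stx1a under 6 of 8, and with the deposited values Syt1 was at 1.36 and Rab3a at 0.98. Past 2-fold, 1 of 9 was higher in H3K27ac, against 17.8% of 17762 genes, and 1 of 9 lower, against 9.17%. The members' median was 0.47, against 0.20 over all genes, and 7 of 9 lay above that median. Of the other exocytosis genes 10 of 55 were higher and 9 lower, with Ppfia3, a liprin of the active zone, at 6.55 or more (1162 reads, a lower bound, against 7) and Syt5 at -3.94 (7 against 112).

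Between the paws, which ask about H3K27ac in the inflamed joint, no member passed 2-fold in either direction with the pseudocount, against 11.6% of 11130 genes higher in arthritis and 7.88% lower. Rab3a was highest, with a log2 ratio of 0.88 (472 reads against 198; 1.01, interval 0.76 to 1.25, with no pseudocount). Syt1 was at 0.35 (1215 against 797; 0.36, interval 0.23 to 0.49). Snap25 was lowest at -0.61 (194 against 270; -0.72, with -0.45 as the upper bound of its interval), followed by Sv2a at -0.48 (933 against 1110; -0.50, interval -0.62 to -0.37), Syn2 at -0.25 and Vamp2 at -0.11. Both outer members passed 2-fold under an alternative, Snap25 with the deposited values (-1.72) and Rab3a with the even array columns (1.01). Rab3a was at 0.46 with the deposited values.

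The intervals of Rab3a, Syt1, Snap25 and Sv2a thus left out 0 in counting error, while nothing measures how 2 paws of the same condition differ. The members' median was -0.18, against 0.11 over all genes. In the control paw, array columns 1, 5, 9, 13, 17 and 21 made up 23.3% of the spots and held 12.9% of all reads. They held 26.7% of the reads of Snap25, 23.5% of Syp and 21.8% of Syn2, shares at percentiles 95.4, 93.1 and 91.2 among all genes, and 9.82% to 14.6% of those of the other 6 members. The part of those columns in the ratio of Snap25 was not tested. In arthritis, 7 of 43 other exocytosis genes were higher past 2-fold, led by Doc2a, a calcium-binding protein of vesicle release, at 4.28 (2242 reads against 59), and 5 lower, led by Slc17a6, a vesicular glutamate transporter, at -4.97 or less (450 against 13136, a lower bound). Neuron markers had a median of -0.20 (1 of 14 higher and 1 lower past 2-fold).

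The control paw against the embryo sets H3K27ac in an adult limb beside that in the whole embryo. Syn1 was lower in the paw, at -1.80 (46 reads against 22; -2.37, interval -3.14 to -1.57, with no pseudocount). Sv2a was at 0.55 (1110 against 69; 0.57, interval 0.22 to 0.94) and Syn2 at 0.35, while Vamp2 was at -0.50 and Syp, Syt1, Snap25, Stx1a and Rab3a were between -0.24 and 0.13. The direction of these 5 followed the processing, and Snap25 ran from -0.44 (even array columns) to 1.07 (deposited values). Syn1 passed 2-fold under 7 of 8 alternatives. Past 2-fold, 0 of 9 were higher in the paw, against 14.1% of 18943 genes, and 1 of 9 was lower, against 8.64%. The members' median was -0.14, against 0.20 over all genes. Cfp, within 5 kb of Syn1, held 1747 reads in the control paw, where Syn1 held 46. Of the other exocytosis genes, 11 of 59 were higher and 1 lower, with a median of 0.25.

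**Figure D4:**
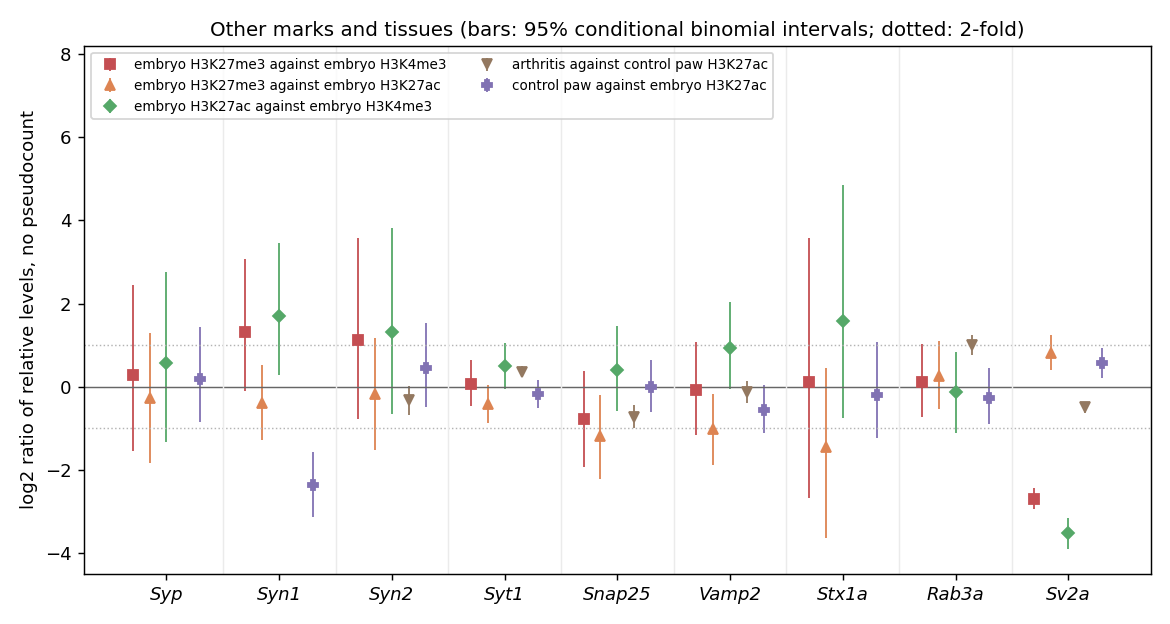
Log2 ratio of relative levels without pseudocount for each member in the 5 comparisons other than brain against embryo, with 95% conditional binomial intervals; dotted lines mark 2-fold, and members without a row in 1 of the sections have no point. Sv2a against embryo H3K4me3 (-2.70 and -3.52) and Syn1 in the control paw (-2.37) lie farthest from 0.

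Over the spots of a section, a member's reads were thinly spread. Syp had a read in 304 of 1200 brain spots (25.3%), with at most 3 in a spot, and the share of brain spots ran from 8.75% (Vamp2) to 25.3% over the 6 members. Sv2a had a read in 203 of 248 spots of embryo H3K4me3 (81.9%), with at most 10 in a spot and 1.71% of its reads in the fullest. In 4 bands along each array axis, Sv2a held 13.4 to 15.8 of every 10000 reads of that section along the first array number and 14.3 to 15.0 along the second, with overlapping intervals. The high Sv2a signal was therefore present in every band of the embryo section.

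**Figure D5:**
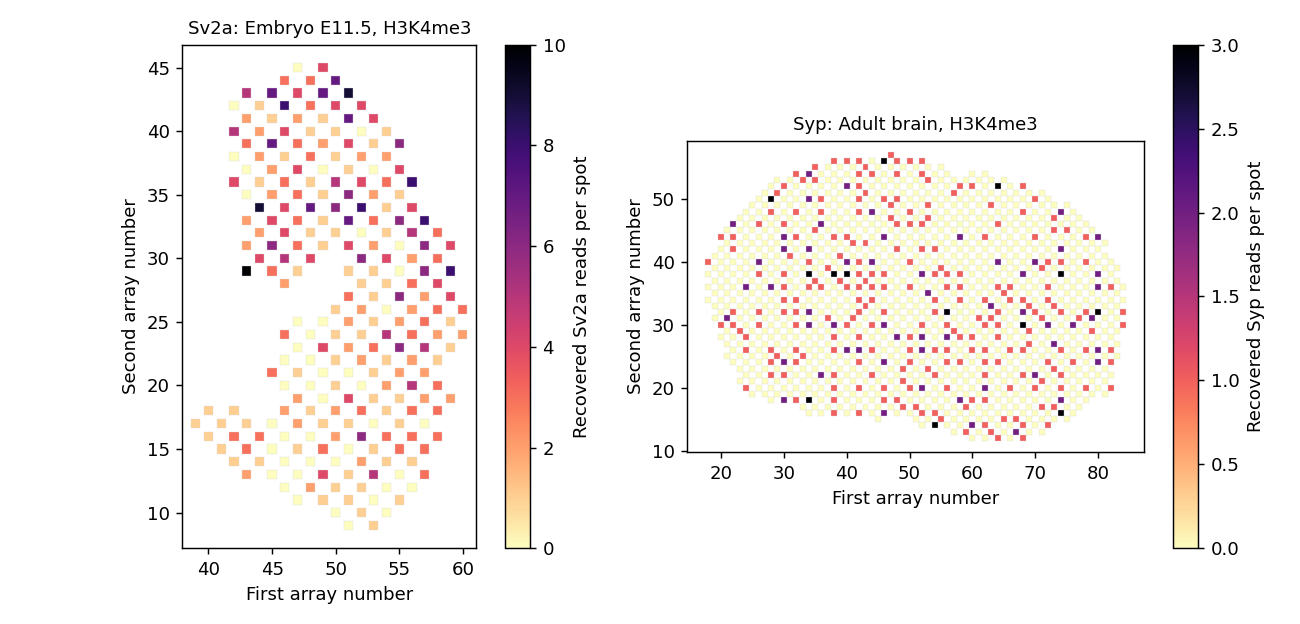
Recovered reads per spot at its position on the array (spot numbers, no unit), for Sv2a in embryo H3K4me3 (left) and Syp in the brain (right). Sv2a reads lie over the whole embryo section, with up to 10 per spot and more where spots hold more reads in all; Syp reads, up to 3 per spot, reach all sides of the brain section but lie mostly in the array lines of even number, as do all reads (odd lines: 49.7% of the spots and 18.6% of the reads).

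The reads of the brain alternated between array lines: the lines of odd number made up 49.7% of the spots and held 18.6% of all reads. They held 18.6% of the Syp reads (72 of 387), and 13.8% (Vamp2) to 22.8% (Rab3a) of those of the other 5 members, so the members shared the alternation.

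Over every member, section and axis, the highest and lowest of 4 bands had separate intervals in 7 of 96 cases, 3 of them for Syt1 and 3 for Snap25. The same count was not made for all genes, and the extremes were picked after the fact in each case. Whether these cases are particular to the members was therefore not tested. In the brain, both had separate extremes along the first array number. Syt1 held 1.55 (1.22 to 1.95), 1.93 (1.58 to 2.33), 2.40 (2.01 to 2.86) and 1.55 (1.21 to 1.95) of every 10000 reads in the 4 bands in order. Snap25 held 0.66 (0.45 to 0.93), 0.39 (0.24 to 0.59), 0.82 (0.60 to 1.10) and 0.52 (0.33 to 0.77). The third band was highest for both, and its interval stood apart from that of the lowest band. For Syp, Vamp2, Rab3a and Sv2a the intervals of the highest and lowest band of the brain overlapped along both axes.

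Syt1 also had separate extremes within embryo sections, while its level ran from 1.97 to 2.86 between sections. In embryo H3K27ac it held 0.78 (0.37 to 1.43) of every 10000 reads in the third band along the first array number and 2.38 (1.65 to 3.33) in the fourth. In embryo H3K27me3 it held 1.85 (1.19 to 2.72) in the second band along the second array number and 0.60 (0.29 to 1.10) in the fourth. In the control paw, Snap25 held from 0.30 (0.22 to 0.41) to 0.55 (0.43 to 0.69) along the first number and from 0.34 (0.26 to 0.43) to 0.58 (0.46 to 0.73) along the second. Sv2a there held from 1.55 (1.34 to 1.77) to 2.00 (1.78 to 2.25) along the second. Along that number Snap25 was lowest in columns 18 to 20, which include none of the columns of few reads named above. It was highest, and Sv2a lowest, in columns 15 to 17, which include column 17 of that set. The part of those columns in these bands was not tested. The bands were not tied to named regions of the tissue.

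The genes nearest to the members' median profile over the 6 sections were Ankrd52, Mrpl22, Zfp985, Hrc and Spata32, among 5402 genes with at least 10 reads in every section. The measure was the Euclidean distance over 6 log2 levels. Distances were 0.29, 0.33, 0.33, 0.35 and 0.36, while the members themselves lay at 0.59 (Rab3a), 1.25 (Vamp2), 1.62 (Snap25), 3.16 (Syt1) and 5.95 (Sv2a). Scaled to the shared genes, these 5 genes were again the nearest. These 5 genes were chosen as the nearest of all, so their distances are no measure of how alike the members are.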

How the data were processed

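Mouse sections were laid on DNA arrays in which antibody-guided protein A-Tn5 cut the marked chromatin at each barcoded spot, per the labels' protocols. The submitters' processing notes name Bowtie2, featureCounts and MACS2, and the builds hg19 and mm9. Their versions and roles, and the region counted for each gene, were not stated there or in the labels. What the tables hold is a signal per gene and spot, quantile-normalised by the authors, as the titles and values of the deposited tables show; this signal has no unit. Reads were recovered from the order of tied values within each spot. By that recovery, 46.3% to 68.9% of the deposited values above 0 belonged to genes without reads. The zone of exact numbers ended at a count held by fewer than 5 genes, and sums of which more than 10% lay beyond it were taken as lower bounds. The decoding was tested on simulated data in which ties were ranked in gene order, as the decoding assumes. That simulation therefore could not test the tie order of the deposited values. In 23 of the 248 spots of embryo H3K4me3, genes with reads may be listed at 0.

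A gene's reads were divided by the mean over all genes of its section, and for a ratio by the mean of the genes that both sections list. The log2 ratio carries a pseudocount of 0.1 on that scale, and 2-fold means a log2 ratio of at least 1 in size. Intervals are 95% (exact Poisson for a level, exact conditional binomial for a ratio without pseudocount). They cover counting error only, and reads without molecular identifiers need not be independent molecules. With 1 section per group, no test between groups was made. All members were named. For the brain against the embryo, the 2 highest and 2 lowest ratios of each other list of the release pathway were named. They were taken among genes with at least 20 reads in both sections together. For the other comparisons, at most the highest and the lowest exocytosis gene by this rule were named. The genes most like the members were the 5 nearest to their median profile with at least 10 reads in every section. The members and lists were chosen with earlier results of these data known. Alternatives were the deposited values, other pseudocounts, a filter on low signal, the median gene as scale, even or odd array columns, spot shares and the share of spots. Python 3.11.15, NumPy 2.4.6, pandas 2.3.3 and SciPy 1.17.1 were used.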

Additional observations from a re-analysis of the deposited data

How the results depend on the processing

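The members' median log2 ratio relative to the median of all genes moved by less than the members' median counting error under every alternative in 5 of the 6 comparisons. The exception was the arthritis against the control paw, where leaving out genes of lower signal kept 3 members and moved that difference from -0.29 to 0.18. In the other 5 comparisons that error was wide, 0.67 to 1.16 log2 units, so the bound is a loose one. Within it, embryo H3K27me3 against H3K4me3 went from -0.01 to 0.52 with the deposited values. Embryo H3K27me3 against H3K27ac went from -0.22 to 0.07 with the odd array columns. With the deposited values the members' median percentile was 57.3 instead of 76.5 in the brain, 57.3 instead of 63.1 in the control paw and 48.1 instead of 59.0 in the arthritis paw. Ranked against the genes held by all 6 sections, an alternative chosen after seeing the data, the median of all members with a row was 53.2 instead of 69.8 for embryo H3K27ac, 40.6 instead of 62.0 for embryo H3K27me3 and 41.3 instead of 63.1 for the control paw (73.3 instead of 76.5 in the brain, 49.8 instead of 65.6 for embryo H3K4me3 and 55.8 instead of 59.0 in the arthritis paw, within counting error). Leaving out Sv2a and Syp and rescaling the levels to those shared genes were also added after seeing the data. In the brain against the embryo, 1 member higher and 1 lower past 2-fold held under each of the 9 alternatives. The counts past 2-fold of the other comparisons ranged between 0 and 4. Levels and ratios of single genes, taken with those counts, were less stable. With the deposited values 53 of these results moved, for a level or ratio beyond counting error, and 55 did not. Syp in the brain went from 2.16 to 1.16 times the mean gene, at percentile 75.4 instead of 93.1. With the share of spots 27 moved and 81 did not. The scale of the shared genes moved 17, and each other alternative at most 11. No paired analysis was possible because each group had 1 section. The embryo H3K4me3 section, with a median of 7 reads per gene, limits single members most: Stx1a, Syn2, Syp and Syn1 held 2 to 5 reads there.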
